A study of Mus musculus with 5 samples.

Results

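The genes described here are 10 members of the extracellular matrix, 6 laminin chains (Lama1, Lama2, Lama4, Lama5, Lamb2 and Lamc1), the nidogens Nid1 and Nid2, fibronectin (Fn1) and tenascin C (Tnc). They were taken by the gene name that the array files give a probe, there written LAMA1, LAMA2, LAMA4, LAMA5, LAMB2, LAMC1, NID1, NID2, FN1 and TNC, which yielded 27 of 45281 probes. A probe was tested if 2 or more of the 5 arrays detected it (detection p under 0.05). That held for 18 of the 27 probes, at least 1 for each of the 10 genes, and all 18 were detected on all 5 arrays.

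Basement membranes are thin sheets of matrix that lie under epithelia and around smooth muscle cells and vessels. Their laminins are trimers of an alpha, a beta and a gamma chain, which bind integrins and dystroglycan on cells, and nidogens link the laminin network to type IV collagen. Fibronectin and tenascin C lie in the matrix between cells, fibronectin as fibrils that cells pull on through integrins and tenascin C mainly where tissue grows or is remodelled. In the uterus such sheets separate the epithelium of lumen and glands from the stroma and wrap the muscle cells of the myometrium.

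Whole uteri of mice aged 15 days, of mixed C57BL/6J;129S5/Brd hybrid background, were read as total RNA on Illumina bead arrays. There were 2 Dicer cKO pools (10 and 12), with Dicer knocked out by Cre from the progesterone receptor gene, and 3 wild type control pools (7, 9 and 11). Dicer cuts microRNA precursors, and a Cre of this kind acts only in cells that turn on the progesterone receptor, so other cells of the organ keep the gene. The sources used here do not say how many animals made up a pool or whether the control mice carried Cre or a floxed allele, and every p-value therefore reflects only how these pools varied. Gene names on the arrays fit mouse genes, although the labels name a human bead array. The brighter Dicer1 probe read 8.62 and 8.75 log2 units in Dicer cKO pools 10 and 12, against 9.15, 9.08 and 9.12 in control pools 7, 9 and 11 (difference -0.43 ± 0.09, SE; limma adjusted p = 0.0233, not called in 6 of 13 alternative settings). The other Dicer1 probe differed by -0.22 ± 0.13 and was not called. Each array detected 47.0% to 49.5% of its probes. Over the tested probes, log2 signals correlated at 0.993 for the pair of Dicer cKO pools, from 0.992 to 0.994 among control pools and from 0.977 to 0.989 between the groups, with the lowest value for Dicer cKO pool 10 against control pool 7. As markers of a uterus, those of smooth muscle, endothelium and mesothelium on the lists used here were all detected, while the probes for Epcam (epithelium) and Nr2f2 (stroma) were not, beside 10 other epithelial and 9 other stromal markers that were.

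Matrix genes moved in both directions in Dicer cKO uteri. Lama1 and Nid2 rose, by 0.69 and by 0.43 and 0.53 log2 units (1 and 2 probes). Called probes of Tnc, Lama2 and Nid1 fell, by 0.72 and 0.67, by 0.53 and by 0.45. A dimmer tested probe of Tnc, at 0.08, and of Nid1, at -0.06, did not pass. Of the 18 tested probes 3 were called higher and 4 lower by limma (adjusted p under 0.05 over all 22845 tested probes), and 11 did not pass. Over all tested probes 5.87% were called, 2.35% higher and 3.52% lower, against 38.9% of the member probes. The 10 genes were chosen with earlier results of these data known, so this contrast is a description and not a test. The 7 called probes belong to 5 genes, and probes of 1 gene in the same pools are not independent. The median difference was 0.05 over the 18 member probes and 0.01 over all tested probes. With only the brightest probe of each member gene it was -0.04. Both Dicer cKO pools lay above all control pools for 8 of the 18 probes and below all of them for 5, against 19.6% and 17.1% of all tested probes, while such a gap on either side was seen for 36.7% of all tested probes. The 8 include all 4 Fn1 probes and both Nid2 probes, and the 5 include the brighter 2 Tnc probes. With all pools, 11 of the 18 probes had an unadjusted limma p under 0.05, against 19.6% of all tested probes. Without Dicer cKO pool 10, 1 Dicer cKO pool remained and the calls were lost. The differences there were 0.55 for Lama1, -0.36 for Lama2 and -0.23 for the brighter Nid1 probe. They were 0.49 on both Nid2 probes and -0.43 and -0.53 on the called Tnc probes. Without Dicer cKO pool 12, 6 of the 7 calls remained. Limma called 1 member probe higher and 1 lower without control pool 7 (281 and 510 of all 22355 tested probes). It called 1 higher and 2 lower without control pool 9 (292 and 541 of 22436). Without control pool 11 it called 4 higher and 1 lower (512 and 723 of 22501). In whole organs, fewer cells that make a transcript and less transcript in each cell cannot be told apart.

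**Figure D1:**
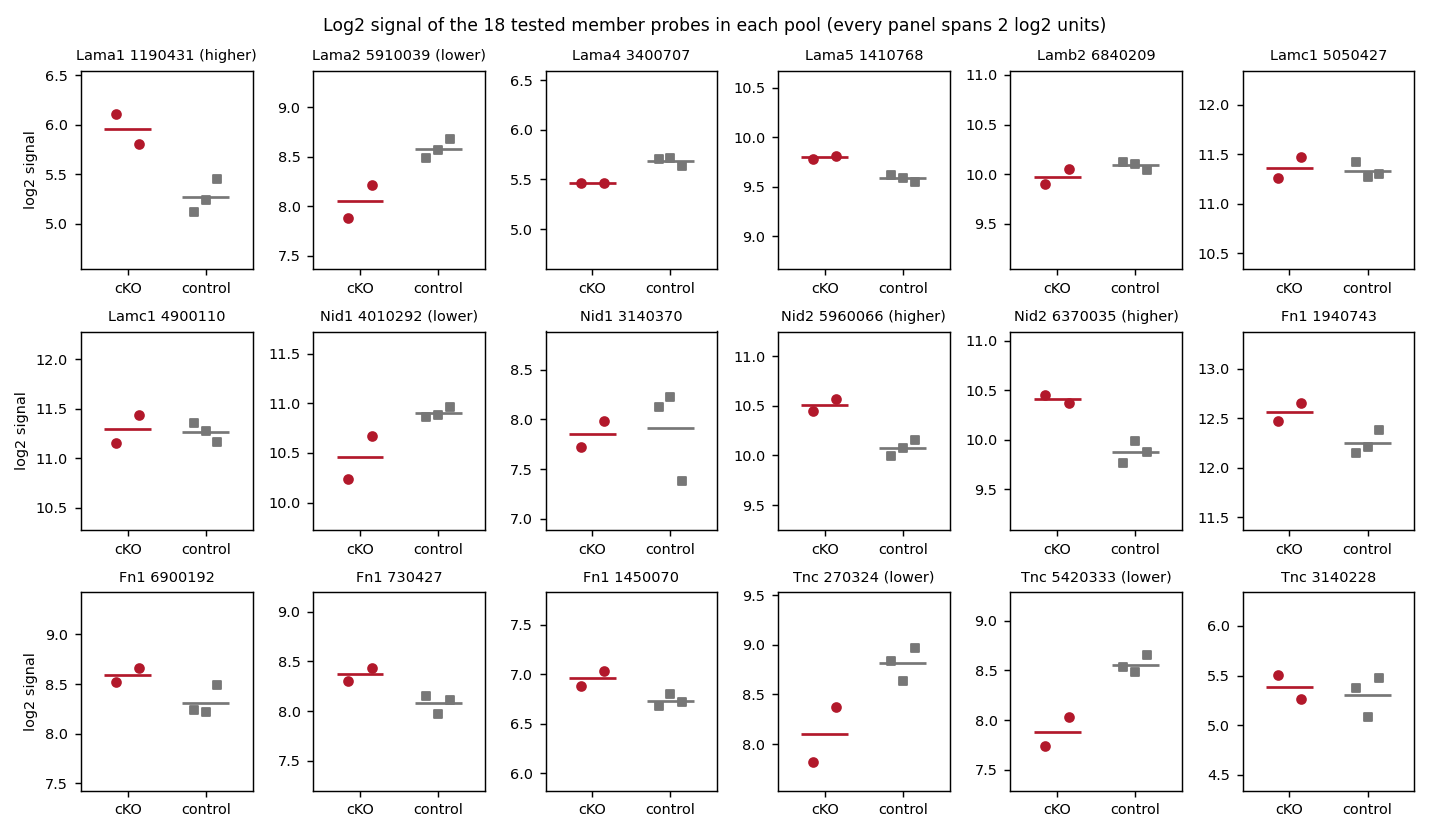
Log2 normalized signal (vertical axis, each panel spanning 2 log2 units) of the 18 tested probes in Dicer cKO pools (circles, left) and control pools (squares, right), with group means as lines. Lama1 and both Nid2 probes stand higher in both Dicer cKO pools, whereas Lama2, the brighter Nid1 probe and the brighter 2 Tnc probes stand lower.

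Promoter sequences are shown for Tnc, Nid1 and Lama2, the 3 genes with a probe called lower. For Nid1 that call was lost in 10 of 13 alternatives, and its dimmer probe, at -0.06, was not called. Sequences came from RefSeq on build GRCm38.p6, whose table matched 5 of the 10 genes, these and Lama5 and Lamb2, which were not called. Lama1 and Nid2, the genes called higher, had no match. Each sequence runs 5′ to 3′ on the gene's strand, with 250 bases before the transcript start and 50 from it on. Capitals mark matches on either strand to the letters of a TATA box (TATANAA), of a GC box as bound by factors of the Sp family (GGGCGG), of the box named for its own letters CCAAT, of the kind of site that AP-1 factors bind (TGANTCA) and of a common form of the E-box (CAGGTG). For Tnc, at chr4:64046887-64047186 on the minus strand, the downstream one of a pair of listed starts is shown, for Nid1 chr13:13437352-13437651 on the plus strand and for Lama2 chr10:27616893-27617192 on the minus strand.
Tnc: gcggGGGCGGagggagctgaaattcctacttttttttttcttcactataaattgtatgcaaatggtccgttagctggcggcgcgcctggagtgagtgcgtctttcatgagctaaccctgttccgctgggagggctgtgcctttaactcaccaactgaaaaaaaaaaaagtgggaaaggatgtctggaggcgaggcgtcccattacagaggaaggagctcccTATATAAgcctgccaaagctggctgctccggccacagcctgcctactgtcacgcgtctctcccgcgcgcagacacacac
Nid1: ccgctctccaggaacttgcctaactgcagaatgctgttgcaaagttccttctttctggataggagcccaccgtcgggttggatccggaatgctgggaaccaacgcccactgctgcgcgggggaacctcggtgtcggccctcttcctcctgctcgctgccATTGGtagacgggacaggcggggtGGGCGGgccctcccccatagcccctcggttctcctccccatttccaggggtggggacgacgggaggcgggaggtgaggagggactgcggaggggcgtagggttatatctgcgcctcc
Lama2: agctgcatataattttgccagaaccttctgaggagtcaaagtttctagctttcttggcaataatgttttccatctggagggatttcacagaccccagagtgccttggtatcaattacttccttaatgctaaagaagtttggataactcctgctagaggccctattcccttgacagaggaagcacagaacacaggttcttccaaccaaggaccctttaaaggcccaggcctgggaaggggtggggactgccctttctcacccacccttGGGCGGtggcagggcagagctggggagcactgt
Each of the 3 windows holds 1 GC box, a motif found in 35.7% of all 32851 promoters of the table. The window of Lama5 holds 4 and that of Lamb2 holds 0. A TATA box match begins at -29 from the start of Tnc, just past the end of the window of its upstream start, and the Nid1 and Lama2 windows hold none, against 11.3% of all promoters. The Nid1 window also holds 1 CCAAT match (37.4% of all promoters), and none of the 3 holds TGANTCA (7.81%) or CAGGTG (20.2%). These are matches of letters, and binding was not measured.

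Among the alpha chains, which give each laminin trimer its tissue and its cell contacts, Lama1 and Lama2 moved in opposite directions. Lama1 encodes the chain typical of embryonic and some epithelial basement membranes. Its only probe read 6.10 and 5.81 log2 units in Dicer cKO pools 10 and 12, against 5.12, 5.24 and 5.45 in control pools 7, 9 and 11. Both Dicer cKO pools lay above all controls, a 1.61-fold rise (0.69 ± 0.16, SE; limma adjusted p = 0.0310). The probe was dim, at deposited intensities of 93.1 and 87.4 in the Dicer cKO pools and between 68.9 and 70.7 in the control pools, and the size of its difference depended on the background step, at 0.40 with a larger normexp offset and 0.42 with no background correction. The call was lost without control pool 7, control pool 9 or Dicer cKO pool 10, with limma adjusted p of 0.110, 0.0871 and 0.305, and with no detection filter (0.103).

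Lama2 encodes the chain of muscle and peripheral nerve laminins, whose loss causes a muscular dystrophy in mice. Its bright probe read 7.88 and 8.22 in Dicer cKO pools 10 and 12, against 8.48, 8.57 and 8.68 in control pools 7, 9 and 11. Both Dicer cKO pools were lower than every control, with pool 10 the lowest of the 5. The level was 1.44-fold lower (-0.53 ± 0.12; limma adjusted p = 0.0335), and the call was lost when any control pool was left out (limma adjusted p from 0.0579 to 0.0931), without Dicer cKO pool 10 (0.300, with a difference of -0.36) and without the intensity trend (0.0715). The other 2 Lama2 probes were not detected on any array.

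Lama4 and Lama5 did not pass the test. Lama4, the alpha chain of vessel basement membranes, had 1 detected probe of 5, at 5.47 and 5.46 in Dicer cKO pools 10 and 12, against 5.70, 5.72 and 5.63 in control pools 7, 9 and 11. The Dicer cKO values lay below every control value, but the difference of -0.22 ± 0.13 did not pass (limma adjusted p = 0.397, 95% interval from -0.51 to 0.07). Lama5, the most widespread alpha chain of adult epithelial basement membranes, read 9.78 and 9.81 in Dicer cKO pools 10 and 12, against 9.62, 9.59 and 9.55 in control pools 7, 9 and 11. Both Dicer cKO pools stood above the controls by a small margin, 0.21 ± 0.08 (limma adjusted p = 0.189, 95% interval from 0.03 to 0.40).

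For the beta and gamma chains among the 10 genes no probe passed the test. Lamb2, which replaces the beta-1 chain in synaptic, kidney and muscle laminins, read 9.90 and 10.05 in Dicer cKO pools 10 and 12, against 10.13, 10.10 and 10.05 in control pools 7, 9 and 11 (-0.12 ± 0.09; limma adjusted p = 0.513). Lamc1 encodes the gamma chain shared by most laminins, and its 2 probes differed by 0.03 ± 0.09 and 0.02 ± 0.10. For both Lamc1 probes Dicer cKO pool 12 was the highest and pool 10 the lowest of the 5 pools. Their 95% intervals ran from -0.16 to 0.23 and from -0.19 to 0.24 log2 units, and the signs turned without Dicer cKO pool 12, at -0.07 and -0.11.

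The 2 nidogens, similar linker proteins that can partly replace each other in mice, were not alike in their calls. Nid2 rose on both of its probes. Probe 5960066 read 10.45 and 10.57 in Dicer cKO pools 10 and 12, against 10.00, 10.08 and 10.15 in control pools 7, 9 and 11. Probe 6370035 read 10.45 and 10.37 in Dicer cKO pools 10 and 12, against 9.77, 9.98 and 9.88 in control pools 7, 9 and 11. On neither probe did the groups overlap. The differences were 0.43 ± 0.09 (limma adjusted p = 0.0155) and 0.53 ± 0.09 (limma adjusted p = 0.0064), rises of 1.35-fold and 1.45-fold. The call of probe 6370035 held in 11 of 12 alternatives and failed when Dicer cKO pool 10 was left out (0.49, with a limma adjusted p of 0.0857). Probe 5960066 was also not called without control pool 7 or 9 or Dicer cKO pool 12, nor without the intensity trend (limma adjusted p from 0.0550 to 0.0778 over these settings and the one without Dicer cKO pool 10).

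For Nid1 the 2 probes disagreed. The brighter, probe 4010292, read 10.24 and 10.67 in Dicer cKO pools 10 and 12, against 10.87, 10.88 and 10.96 in control pools 7, 9 and 11. The control values were close together, and the Dicer cKO pools lay further apart and both below them. The difference of -0.45 ± 0.12 had a limma adjusted p of 0.0498, at the edge of the threshold, and the call was lost in 10 of 13 alternatives, with the difference at -0.23 without Dicer cKO pool 10. The dimmer probe read 7.72 and 7.98 in Dicer cKO pools 10 and 12, against 8.12, 8.23 and 7.38 in control pools 7, 9 and 11, and the low value in control pool 11 made the groups overlap. It differed by -0.06 ± 0.22 (limma adjusted p = 0.921), and by -0.33 without control pool 11 (adjusted p = 0.216).

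**Figure D2:**
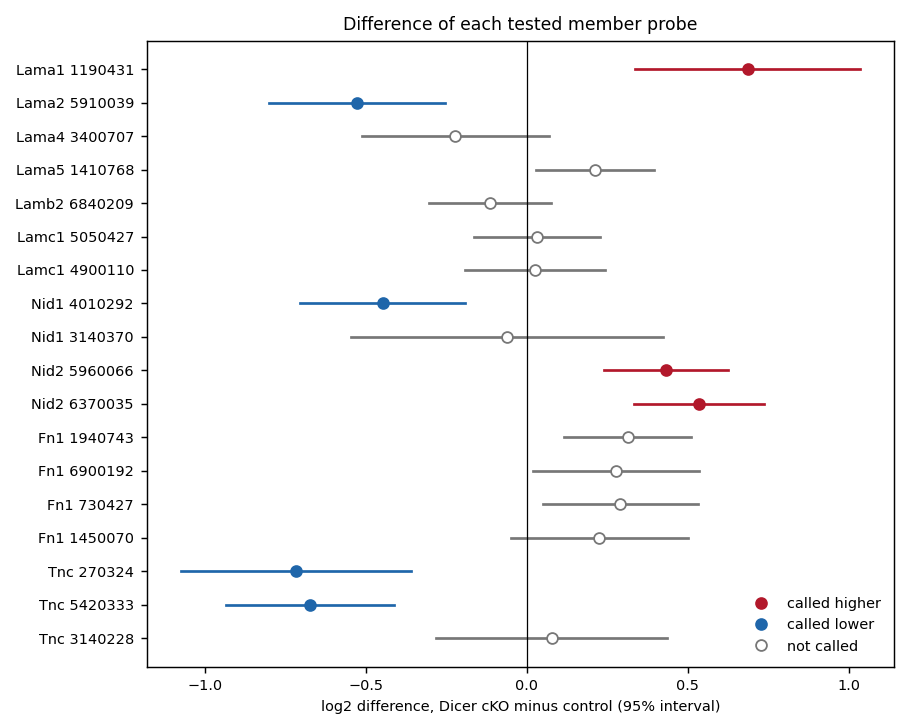
Log2 difference, Dicer cKO minus control (horizontal axis), of the 18 tested probes, as points with 95% intervals from the limma fit. The 3 probes called higher and the 4 called lower are filled, and the 4 Fn1 probes lie to the right of 0 without passing the threshold.

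Fibronectin was higher in the Dicer cKO pools on all 4 of its probes, and none passed the test. The brightest, probe 1940743, read 12.48 and 12.65 in Dicer cKO pools 10 and 12, against 12.15, 12.21 and 12.38 in control pools 7, 9 and 11. On each of the 4 probes both Dicer cKO pools lay above all controls, a side that 19.6% of all tested probes share. The 4 differences lay close together, from 0.23 to 0.31, and since the probes read 1 transcript family in the same pools they are not independent. Limma adjusted p was 0.0715 for the brightest probe (0.31 ± 0.09) and between 0.168 and 0.362 for the others. The brightest probe was called in 1 alternative, without control pool 11 (0.38, limma adjusted p = 0.0345).

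Tenascin C fell on its brighter 2 probes. Probe 270324 read 7.82 and 8.38 in Dicer cKO pools 10 and 12, against 8.84, 8.64 and 8.97 in control pools 7, 9 and 11. Probe 5420333 read 7.74 and 8.03 in Dicer cKO pools 10 and 12, against 8.54, 8.48 and 8.65 in control pools 7, 9 and 11. In both cases the Dicer cKO pools lay below all controls and pool 10 was the lower of the pair. The differences were -0.72 ± 0.16 (limma adjusted p = 0.0276) and -0.67 ± 0.12 (limma adjusted p = 0.0075), so that the levels were 1.64-fold and 1.59-fold lower. Probe 5420333 kept its call in 11 of 12 alternatives and lost it when Dicer cKO pool 10 was left out (-0.53, with a limma adjusted p of 0.0965). Probe 270324 missed the threshold when Dicer cKO pool 10 was left out (-0.43, with a limma adjusted p of 0.267), without control pool 7 or 11 (0.0877 and 0.0710) or without the intensity trend (0.0707). A dim probe, 3140228, differed by 0.08 ± 0.16 with overlapping groups (limma adjusted p = 0.851), and the other 3 were not tested. The sources used here do not say which exons or transcripts the probes of a gene read.

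**Figure D3:**
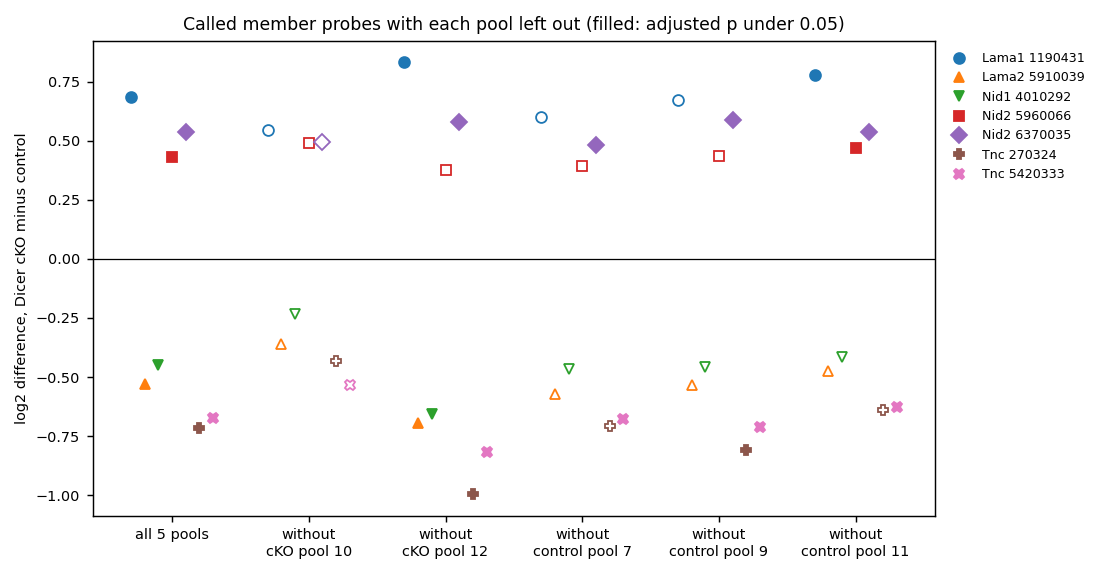
Log2 difference, Dicer cKO minus control (vertical axis), of the 7 called probes with all 5 pools and with each pool left out (horizontal axis). Filled symbols have a limma adjusted p under 0.05; no symbol crosses 0, and all 7 are open without Dicer cKO pool 10.

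Bead noise within an array was smaller than the differences of the 7 called probes. A tested member probe was read by 24 to 67 beads per array. The standard error of its mean intensity over beads was between 2.26% and 7.89% of the deposited intensity, before background correction. This covers reading error on the array, and the tests rest on the spread between pools.

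Of the laminin chains outside the 10 genes, Lamb3 and Lamc3 fell. Lamb3, the beta chain of the laminin that anchors epithelial cells, fell by 0.80 ± 0.14 (limma adjusted p = 0.0091), with 7.53 and 8.04 in Dicer cKO pools 10 and 12, against 8.67, 8.57 and 8.51 in control pools 7, 9 and 11. Its alpha chain gene Lama3 differed by -0.72 ± 0.19 and did not pass (limma adjusted p = 0.0607). Lamc3, a gamma chain of other laminins, fell by 1.11 ± 0.18 (limma adjusted p = 0.0058), and a second Lamc3 probe by 0.97 ± 0.16. Lamb1, listed on the array as Lamb1-1, differed by -0.01 ± 0.16. The list of 5 thus had 2 genes lower, 0 higher (also 0 at an unadjusted p under 0.05) and 3 that did not pass in limma, with a median of -0.72, beside 0.01 over all tested probes. Both calls failed when Dicer cKO pool 10 was left out, with limma adjusted p of 0.0846 for Lamb3 and 0.107 for Lamc3.

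Among 20 tested receptors for laminin and fibronectin, 2 rose, 1 fell and 17 did not pass. Itgb4, which pairs with the integrin alpha-6 chain in the hemidesmosome and binds the anchoring laminin, read 8.42 and 8.75 in Dicer cKO pools 10 and 12, against 10.03, 9.88 and 9.62 in control pools 7, 9 and 11. It fell by 1.26 ± 0.14, with a second probe at -1.42 ± 0.18, and was called in 13 of 13 alternatives. Itga5, the alpha chain of the main fibronectin receptor, rose by 0.38 ± 0.10 (limma adjusted p = 0.0484), and the syndecan gene Sdc1, a heparan sulfate receptor of epithelia, by 0.53 ± 0.13 (limma adjusted p = 0.0418). Each of these 2 calls was lost in 8 of 13 alternatives, and a second tested probe of each gene was not called (0.24 and 0.27). The median over the list was 0.02.

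Of 20 other basement membrane genes tested, Col4a6, a minor type IV collagen chain, rose and 19 did not pass, with a list median of 0.10. This count lies near the 5.87% called among all tested probes. Its brightest probe differed by 0.63 ± 0.11 (limma adjusted p = 0.0084), with a call lost when Dicer cKO pool 10 was left out (0.0806), and its 3 other probes, at 0.49, 0.12 and -0.08, were not called. Among 24 other matrix glycoproteins 1 rose, 1 fell and 22 did not pass, with a median of 0.01. Spp1, encoding osteopontin, a secreted integrin ligand, was not detected on any control array and was at least 2.88-fold higher in Dicer cKO pools. It passed the detection filter only through the Dicer cKO pools, with a limma adjusted p of 4.34e-05, of 9.59e-05 with no detection filter over all 45281 probes, and no test where detection on all 5 arrays was asked. Tgfbi, encoding a matrix protein induced by TGF-beta, fell by 0.74 ± 0.08, with a second probe at -0.89 ± 0.10. In all, 4 of these 69 genes, Spp1 among them, rose and 4 fell by limma, beside 2.35% of all tested probes called higher and 3.52% lower. With detection on all 5 arrays 2 of 62 rose and 4 fell.

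**Figure D4:**
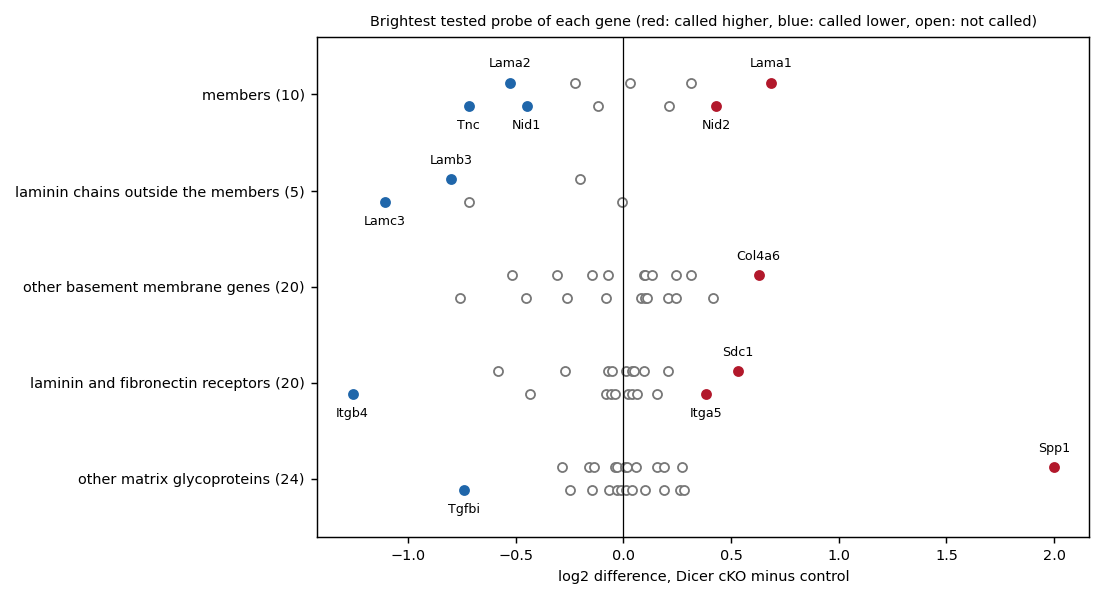
Log2 difference, Dicer cKO minus control (horizontal axis), of the brightest tested probe of each gene, for the 10 members and the 4 lists of other matrix genes (rows, number of genes in brackets). Called genes are filled and named, and 61 of the 69 genes outside the members are open; the point of Spp1 is its fitted value, since no control array detected it.

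Markers of some cell types differed between the groups, and not all of a list in the same direction. Over all tested probes 2.35% were called higher and 3.52% lower, and 19.6% had an unadjusted limma p under 0.05. The marker lists were chosen with earlier results of these data known, so their counts are a description. Of 10 epithelial markers 2 rose and 5 fell, and their summed linear signal was 8604 to 8831 in Dicer cKO pools and 10338 to 13439 in control pools. Of the 5 that fell, Foxa2 was detected on the 3 control arrays and on no Dicer cKO array, and so entered the test only through the controls. Among the others were the claudin gene Cldn3 (-1.48 ± 0.17) and the keratin gene Krt18 (-0.86 ± 0.09). Of 9 stromal markers 3 fell and 0 rose in limma, with 0 higher at an unadjusted p under 0.05 (sums of 34535 to 38303 in Dicer cKO pools and 41654 to 43324 in control pools), with Thy1 at -0.79 ± 0.11 and Twist2 at -0.70 ± 0.08. Of 10 macrophage markers 4 rose and 1 fell (6922 to 8187 in Dicer cKO pools, 5108 to 6167 in control pools), with Lyz2 at 0.83 ± 0.13 and Cd14 at -1.81 ± 0.17. Of 4 adipocyte markers 3 fell (732 to 1585 in Dicer cKO pools, 2029 to 3747 in control pools), and Plin1 and Fabp4 were not detected. The adipocyte sums are mostly Cfd signal, and Lyz1 is the brightest of the macrophage markers. Such sums weigh the brightest genes most. The part of these cell types in the differences of Lama1, Lama2, Nid1, Nid2, Tnc, Lamb3, Lamc3 and Itgb4 was not tested.

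The other lists had at most 1 called marker each. Limma called 0 of 9 smooth muscle markers, with 0 at an unadjusted p under 0.05 (sums of 48468 to 49758 in Dicer cKO pools, 46961 to 48384 in control pools), and 0 of 9 endothelial markers, with 1 at that unadjusted p (sums of 9698 to 10886 in Dicer cKO pools, 10230 to 11321 in control pools). Of 6 pericyte markers 1 fell, Rgs5 (-0.57 ± 0.11; sums of 2166 to 2337 in Dicer cKO pools and 2388 to 2639 in control pools). Of 3 skeletal muscle markers Acta1 fell (-0.69 ± 0.13) and Ckm was not detected. Tnnt3 differed the other way, by 0.39 ± 0.16, and did not pass (limma adjusted p = 0.214), with both Dicer cKO pools above all controls. The sums, 1542 to 2025 in Dicer cKO pools and 2438 to 3000 in control pools, are mostly Acta1 signal. The calls of Rgs5 and Acta1, and of the adipocyte markers Adipoq and Cfd, were lost in 3, 2, 3 and 5 of 13 alternatives, each among them when Dicer cKO pool 10 was left out, with limma adjusted p of 0.153, 0.145, 0.240 and 0.351 there. Rgs5 was also not called without control pool 7 (0.0507) or 9 (0.0603), nor Cfd without control pool 7 (0.121) or 9 (0.0837). The differences of Adipoq and Cfd were -0.94 and -0.75 with Dicer cKO pool 10 left out, against -1.42 and -1.38 with all pools. Limma called 0 markers of lymphocytes (3 tested), mast cells (4), Schwann cells (2), mesothelium (4) and red cells (3), with 0 at an unadjusted p under 0.05 in each list, and Ptprc, the pan-leukocyte marker, was not detected. The part of these cells in the differences of the matrix genes was not tested.

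The probes with the most similar pattern to each called probe were found by the root mean square difference of the 5 centred log2 values, over all tested probes of other genes. For Lama1 they were probes of Mcm10, Mcm3 and Hn1, at distances from 0.03 to 0.04 log2 units, with differences of 0.73, 0.70 and 0.75. For the Nid2 probe 6370035 they were probes of Igf1, Siah1b and Hyal2, which differed by 0.51, 0.48 and 0.56. The Tnc probe 5420333 had its nearest patterns in Plac8, Spire2 and Pold4 (-0.74, -0.62 and -0.62), and Lama2 was nearest to Itgb6, a beta chain of integrin receptors, at a distance of 0.02, with a difference of -0.52 that did not pass. The Nid2 probe 5960066 was nearest to Bnc2 among probes named for a gene symbol (0.45, not called), and the Tnc probe 270324 to Acta1, at a distance of 0.06. The nearest probes of Nid1 carry only clone or locus names. These likenesses rest on 5 pools and are a description.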

How the data were processed

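Total RNA of uteri was read on 1 Illumina bead array per pool. The deposited files hold, per the file headers, a mean bead intensity per probe, the SD of bead intensities, the number of beads (other) and a detection score, a fraction from 0 to 1. Per the submitters' processing notes the authors used BeadStudio (version not given in the sources used here). The deposited intensity values are linear and, as their differing medians show, not normalized between arrays. The score rises with signal, so 1 minus it served as detection p. A deposited table of normalized intensity, with equal medians in every column, gave only counts over all probes, since its row names could not be matched to the arrays' probe numbers.

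With limma 3.58.1 in R 4.3.3, values were corrected by normexp from the detection p (offset 16), quantile-normalized and put on the log2 scale (neqc). The 22845 probes of 45281 with detection p under 0.05 on at least 2 of 5 arrays were fitted probe by probe (lmFit, eBayes with an intensity trend, no covariate, 2-sided), Benjamini-Hochberg adjusted p under 0.05 counting as called. The code was tested on simulated data. Each difference subtracts control from Dicer cKO in log2 units, ± marks the fit's standard error, and the offset compresses the differences of dim probes. Where no array of a group detected a gene, the fold is a lower bound. For it, each such array counted with its lowest detected signal or the gene's own signal, whichever was higher.

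The 10 genes and the gene lists were chosen with earlier results of these data known. Lists were counted by the brightest tested probe of a gene, and up to 4 called genes per matrix list, those with the largest difference, were named, with 2 markers at most per cell type list, by moderated t; not all are printed. Lama3, Lamb1, Foxa2, Lyz1 and the markers given as not detected were named in addition, after their values were seen. No scan or slide information was found, so no batch could be tested. Within groups the squared difference over bead variance had a median from 1.36 to 1.86 per pair of arrays, against 0.455 from bead error alone. The arrays of a pair thus differed by more than bead error. Whether any 2 arrays shared RNA cannot be told from this, since the expected value leaves out labelling and hybridization.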

Additional observations from a re-analysis of the deposited data

How the results depend on the processing

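Of the 7 called member probes, none changed direction in any of up to 13 alternatives each. The call of the brighter Nid1 probe was lost in 10 of 13, at adjusted p from 0.0502 with an offset of 50 to 0.363 without Dicer cKO pool 10, and the cause was not tested. With single pools left out, the member probes called higher numbered 0 to 4 and those called lower 0 to 4, against 3 and 4 with all pools. Both counts were lowest without Dicer cKO pool 10, where 1 Dicer cKO pool remained. Over all probes the counts were 104 to 512 higher and 252 to 723 lower, against 536 and 804, and over the matrix lists 0 to 3 higher and 2 to 7 lower, against 4 and 4. The lowest of each of these counts came without Dicer cKO pool 10, where the remaining Dicer cKO pool was assumed to vary like the controls. Without Dicer cKO pool 12, which leaves as many arrays, 502 probes were higher and 717 lower, and the cause of the gap was not tested. Without the intensity trend 2 member probes were higher and 1 lower, beside 349 higher and 574 lower of all 22845 tested probes. In that setting 2 matrix list genes were higher and 4 lower. With median scaling, detection on all 5 arrays and no detection filter, 2 matrix list genes were higher and 4 lower in each case. The authors' normalized table, with no detection filter over 45281 probes, gave 507 higher and 788 lower, beside 396 and 640 from the array files with no filter.

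Signs turned only for probes that were not called. With single pools left out, Lamc1 probe 5050427 ranged from -0.074 (without Dicer cKO pool 12) to 0.14, Lamc1 probe 4900110 from -0.11 (without Dicer cKO pool 12) to 0.16, with -0.02 without control pool 11, the dimmer Nid1 probe from -0.33 to 0.10 and Tnc probe 3140228 from -0.047 to 0.20. The dimmer Nid1 probe was above 0 without control pool 7, control pool 9 or Dicer cKO pool 10, and Tnc probe 3140228 below 0 without control pool 9 or Dicer cKO pool 10. Lamc1 probe 5050427 was at -0.0017 with median scaling. No paired analysis was possible because the groups share no pool number. The number of arrays limits the precision.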

Other observations

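Of the 27 probes, 9 were detected on fewer than 2 arrays and were not tested, 2 of Lama2, 4 of Lama4 and 3 of Tnc. Only Tnc probe 5420605 was detected on any array, on control pool 7 alone, where it read 5.12 log2 units, beside 4.42 and 4.62 in Dicer cKO pools 10 and 12 and 4.61 and 4.75 in control pools 9 and 11. The group means of the other 8 differed by -0.08 to 0.11 log2 units near the background of the arrays, so these probes carry no information on the direction of their genes at this signal.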
